A study of Mus musculus with 4 samples.

Results

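Sperm ADAMs and the proteins that fold and escort them were examined as a set of 10 mouse genes: 6 ADAM genes (Adam1a, Adam2, Adam3, Adam5, Adam18 and Adam32), 3 genes of testis endoplasmic reticulum chaperones (Clgn, Calr3 and Pdilt) and Tex101. They were taken by symbol from a gene table of 55335 rows, and all 10 were found once each. The libraries were poly(A) RNA-seq of testes of Mus musculus at postnatal day 14, with 2 libraries of genotype Znhit1_KO and 2 of genotype CTRL. Znhit1 encodes a subunit of the SRCAP chromatin remodeller, which deposits the histone variant H2A.Z, and the series concerns gene expression at the pachytene stage of male meiosis. Per the labels the tissue was testis and the cells were testis cells, whereas the design field names germ cells instead; Sertoli cell markers were abundant in every library, so the values are read as those of mixed testis cells. The sources used here give no strain, no Cre driver, no account of how Znhit1 was disrupted and no alleles of the CTRL animals. The 2 libraries of a group are labelled as independent biological replicates.

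ADAM proteins are membrane proteins with a metalloprotease-like and a disintegrin domain, and a subgroup of them is made in male germ cells and carried to the sperm surface. In mouse, ADAM3 is needed for sperm to pass from the uterus into the oviduct and to bind the egg coat. It reaches the surface only after assembly in the endoplasmic reticulum, where calmegin (Clgn), a testis relative of calnexin, pairs ADAM2 with an ADAM1 partner, and where calsperin (Calr3) and PDILT, testis relatives of calreticulin and of protein disulfide isomerase, act on ADAM3 itself. TEX101 is a glycolipid-anchored protein of germ cells that is also required for ADAM3 to appear on sperm.

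The deposited counts summed to 157790457 and 136732861 in Znhit1_KO replicates 1 and 2, and to 129531714 and 136178177 in CTRL replicates 1 and 2. Znhit1 itself stood at 8.0 and 5.24 TPM (the authors' length-normalised transcript level) in Znhit1_KO and at 55.4 and 90.2 TPM in CTRL. Znhit1_KO replicate 1 and CTRL replicate 2 stood farthest apart in spermatocyte marker level: the TPM of 20 pachytene spermatocyte markers summed to 1354 and 2008 in Znhit1_KO replicates 1 and 2 and to 2656 and 4989 in CTRL replicates 1 and 2. In these bulk samples fewer cells of a type and less RNA per cell cannot be told apart. Log2 changes are Znhit1_KO over CTRL from the edgeR quasi-likelihood test on counts, with a standard error (SE) and a p adjusted over 24116 genes by the Benjamini-Hochberg method. By that test 0 genes passed an adjusted p of 0.05 (0.0% of those tested), so every edgeR difference below fell short of the threshold.

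The genes spanned levels from 0 to 1371 TPM. In Znhit1_KO the order by mean TPM was Tex101 (896.9), Clgn (120.1), Adam2 (34.7), Adam5 (16), Adam1a (5.50), Adam32 (5.10), Calr3 (4.83), Adam3 (0.882), Adam18 (0.286) and Pdilt (0.163). In CTRL it was Tex101 (1248), Clgn (278.0), Adam5 (97.4), Adam2 (88.3), Adam32 (38.8), Adam3 (14), Adam18 (5.95), Calr3 (5.65), Adam1a (2.79) and Pdilt (0). The 2 libraries of a group overlapped between Adam2 and Adam5 in both groups. In Znhit1_KO they also overlapped between Adam5 and Adam1a, among Adam1a, Adam32 and Calr3, and between Adam18 and Pdilt. In CTRL the range of Adam18 (2.88 to 9.02 TPM) reached into those of Adam3, Calr3 and Adam1a. Other neighbours in the order did not overlap.

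**Figure D1:**
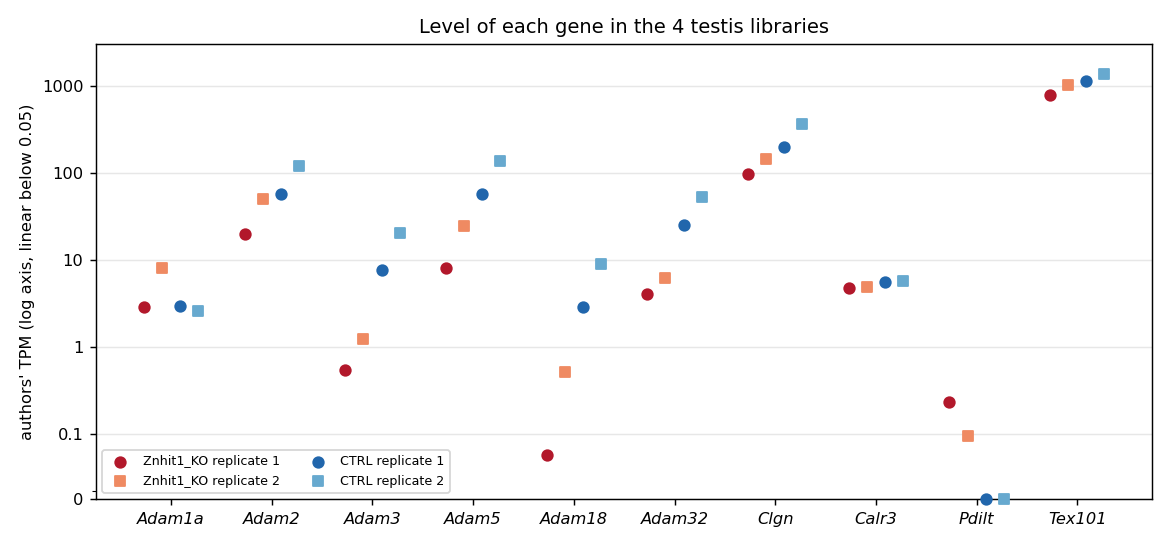
The authors' TPM of each of the 10 genes in each library, on a log axis that is linear below 0.05; circles are replicate 1 and squares replicate 2, with Znhit1_KO in red shades left of CTRL in blue shades. Tex101 lay at 777.7 TPM or above in every library, Pdilt at 0.230 TPM or below, and Adam3 and Adam18 show the widest distance between the groups.

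Promoter windows were at hand in RefSeq for 4 of the 10 genes, Adam1a, Calr3, Pdilt and Tex101. Those of the most and the least abundant gene are shown, as the 250 bases before the RefSeq transcription start, 5′ to 3′ on the minus strand (GRCm38.p6), with the letters CCAAT, or ATTGG for the other strand, in capitals. The RefSeq starts of Tex101 and Adam1a lie well inside the longer spans that GENCODE gives these genes. The Adam1a window is 121521696 to 121521945 on chromosome 5, minus strand, where the GENCODE gene reaches 121545482.
Tex101, chr7:24672051-24672300: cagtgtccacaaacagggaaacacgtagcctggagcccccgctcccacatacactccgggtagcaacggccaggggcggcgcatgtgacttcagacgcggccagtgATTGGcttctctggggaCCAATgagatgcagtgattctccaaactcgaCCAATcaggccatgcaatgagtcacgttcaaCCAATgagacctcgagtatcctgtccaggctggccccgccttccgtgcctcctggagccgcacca
Pdilt, chr7:119523483-119523732: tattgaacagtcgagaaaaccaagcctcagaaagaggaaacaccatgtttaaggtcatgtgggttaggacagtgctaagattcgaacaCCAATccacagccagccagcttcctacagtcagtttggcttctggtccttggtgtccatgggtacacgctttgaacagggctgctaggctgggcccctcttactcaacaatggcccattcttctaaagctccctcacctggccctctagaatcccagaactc
The Tex101 window held 4 such matches and 14 CpG dinucleotides, and the Pdilt window 1 match and 3 CpG. Among 27025 gene promoters of the same length, 34.5% held at least 1 match and 0.918% at least 4, and the median number of CpG was 6. The Calr3 window held 1 match and 13 CpG, and the Adam1a window 1 match and 4 CpG. A match is a string of letters and not a measured binding site.

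The largest differences were in 4 ADAM genes that lie side by side. Adam18, Adam3, Adam5 and Adam32 run in this order, all on the minus strand, over 346.6 kb of chromosome 8 (24602246 to 24948804, mm10, GENCODE M21), with no other protein-coding gene between them. Adam3, the ADAM on which sperm transport depends in mouse, lies at 24677225 to 24725852. It had 0.539 and 1.23 TPM in Znhit1_KO replicates 1 and 2, against 7.69 and 20.3 TPM in CTRL replicates 1 and 2. The lowest CTRL library was thus above both Znhit1_KO libraries, which were themselves near 1 TPM. The log2 change was -4.12 (SE 0.701), with an edgeR adjusted p of 0.264 and an unadjusted p of 0.0016.

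Adam18 (24602246 to 24674755), known as a testis ADAM, had 0.0569 and 0.515 TPM in Znhit1_KO and 2.88 and 9.02 TPM in CTRL. It was close to the lower end of what was counted in Znhit1_KO replicate 1, with an estimated count of 9, and the replicates of Znhit1_KO differed 9.04 times, the widest replicate gap of the set. Its log2 change was -4.40 (SE 1.13; edgeR adjusted p of 0.323). Adam32 (24836140 to 24948804) had 4.0 and 6.20 TPM in Znhit1_KO and 25.1 and 52.4 TPM in CTRL, with no overlap and a log2 change of -3.01 (SE 0.507; edgeR adjusted p of 0.264). Adam5 (24727093 to 24824369), the most abundant of the 4 in both groups, had 7.97 and 24.1 TPM in Znhit1_KO and 57.1 and 137.6 TPM in CTRL. Its groups did not overlap, and its log2 change was -2.67 (SE 0.695; edgeR adjusted p of 0.323).

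The 4 genes did not keep their proportions. Per length, Adam3 stood at 6.77% and 5.08% of Adam5 in Znhit1_KO and at 13.5% and 14.8% in CTRL, and Adam18 at 0.715% and 2.14% in Znhit1_KO and at 5.04% and 6.55% in CTRL; neither ratio overlapped between groups. Adam32 stood at 50.2% and 25.7% of Adam5 in Znhit1_KO and 44.0% and 38.1% in CTRL, which overlapped. These ratios come from 2 libraries a group and were not tested.

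The genes on either side of the 4 had smaller log2 changes, between -0.34 and 1.17. Adam9, a broadly expressed ADAM protease gene on the same strand, begins 807 bases beyond the annotated end of Adam32 in coordinate order. It had 52.2 and 45.7 TPM in Znhit1_KO and 46.0 and 37.8 TPM in CTRL, a log2 change of 0.19 (SE 0.154; edgeR adjusted p of 0.706). Adam32 accordingly stood at 7.66% and 13.6% of Adam9 in Znhit1_KO and at 54.7% and 139.0% in CTRL. Farther on, Tm2d2 had a log2 change of -0.34 (SE 0.181), Htra4 of 1.17 (SE 0.594) and Plekha2 of 0.48 (SE 0.309). On the other side Ido1 and Ido2 held at most 11 estimated counts in any library and were not tested, and Tcim had a log2 change of 0.28 (SE 0.379). These neighbours were named for their position, and those other than Adam9 after their values were seen.

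**Figure D2:**
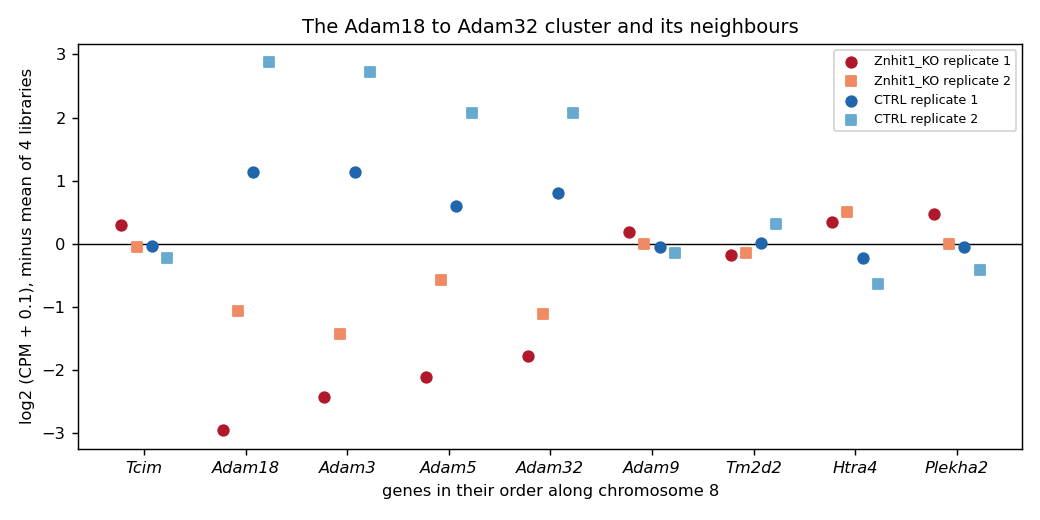
Log2 of CPM (counts scaled by library size) plus 0.1, minus the mean of the 4 libraries, for the tested genes in their order along chromosome 8; circles are replicate 1 and squares replicate 2, with Znhit1_KO left of CTRL. In Adam18, Adam3, Adam5 and Adam32 both Znhit1_KO libraries lie below both CTRL libraries, and in Adam9 they lie just above them.

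Adam2, whose product is the beta subunit of fertilin, is on chromosome 14 (66027329 to 66077733). It had 19.9 and 49.4 TPM in Znhit1_KO and 56.3 and 120.4 TPM in CTRL, so that the groups did not overlap but Znhit1_KO replicate 2 came close to CTRL replicate 1. Its log2 change was -1.43 (SE 0.584; edgeR adjusted p of 0.481), with -0.64 when CTRL replicate 2 was left out and -2.23 when Znhit1_KO replicate 2 was. Per length, Adam2 stood at 249.0% and 205.0% of Adam5 in Znhit1_KO and at 98.6% and 87.5% in CTRL, so that the more abundant of the 2 ADAMs was Adam2 in Znhit1_KO libraries and Adam5 in CTRL libraries.

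The 2 ADAM1 genes, whose products are the alpha partners of ADAM2, differed in direction. Adam1b, which is outside the set, had 2.42 and 2.78 TPM in Znhit1_KO and 5.29 and 10.5 TPM in CTRL, a log2 change of -1.68 (SE 0.437; edgeR adjusted p of 0.323). Adam1a (chromosome 5, 121518576 to 121545482) had 2.90 and 8.11 TPM in Znhit1_KO and 2.98 and 2.60 TPM in CTRL. Only Znhit1_KO replicate 2 was high by TPM, where the groups overlapped; by CPM Znhit1_KO replicate 1 (3.98) was just above the CTRL libraries (3.96 in both). The log2 change of Adam1a was 1.21 (SE 0.601; edgeR adjusted p of 0.544), and it was -0.0010 without Znhit1_KO replicate 2. Of the 7508 annotated exonic bases of Adam1a, 4779 are also exonic in Gm42878 and 1805 in Mapkapk5, both on its strand, and 848 in Tmem116 on the other strand. The division of reads among them is therefore uncertain, and Gm42878 had 4.81 and 4.53 TPM in Znhit1_KO and 2.36 and 1.08 TPM in CTRL.

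Of 15 further ADAM genes known from mouse testis, 14 were in the table and 4 passed the filter on low counts; 8 held a count of 0 in all 4 libraries. Adam30 had 0.406 and 0.593 TPM in Znhit1_KO and 1.70 and 5.33 TPM in CTRL, a log2 change of -2.90 (SE 0.685; edgeR adjusted p of 0.303). Adam21 had a log2 change of -0.53 (SE 0.676) and Adam4 of 0.42 (SE 1.08), both with overlapping groups. The authors' deposited table marks Adam1b and Adam30 lower, against a background of 3.22% of its genes. The 12 tested ADAMs of somatic tissues had a median log2 change of 0.28, against 0.032 over all genes tested. By CPM 1 was lower in both Znhit1_KO libraries (Adam22, -0.53, SE 0.204) and 4 were higher, where 21.3% and 21.8% of all genes tested were lower and higher in this sense. The most abundant ones, Adam10 (log2 change 0.17, SE 0.176) and Adam17 (0.014, SE 0.184), had overlapping groups.

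Among the chaperone genes, Clgn was lower in both Znhit1_KO libraries, Calr3 was nearly level and Pdilt was barely detected. Clgn (chromosome 8, 83389867 to 83428552) had 96.7 and 143.6 TPM in Znhit1_KO and 195.0 and 361.1 TPM in CTRL, with no overlap. Its log2 change was -1.34 (SE 0.427; edgeR adjusted p of 0.382), and -0.64 without CTRL replicate 2. Its general counterpart Canx, calnexin, had 298.4 and 375.5 TPM in Znhit1_KO and 332.8 and 358.2 TPM in CTRL, so that Clgn stood at 32.4% and 38.2% of Canx in Znhit1_KO and at 58.6% and 101.0% in CTRL.

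Calr3 (chromosome 8, 72424176 to 72443870) had 4.80 and 4.85 TPM in Znhit1_KO and 5.52 and 5.77 TPM in CTRL. The groups did not overlap, but the difference was small, a log2 change of -0.27 (SE 0.278; edgeR adjusted p of 0.773). Calreticulin itself (Calr) had 1535 and 1646 TPM in Znhit1_KO and 1519 and 1474 TPM in CTRL, and Calr3 amounted to 0.313% and 0.295% of it in Znhit1_KO and 0.363% and 0.392% in CTRL.

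Pdilt (chromosome 7, 119486587 to 119523489) had estimated counts of 31 and 12 in Znhit1_KO (0.230 and 0.0950 TPM) and is listed at 0 in both CTRL libraries. It passed the filter on low counts only through the Znhit1_KO libraries, and no fold is given against a group at 0. As the filter fixed its direction, its edgeR p is not given either. Of its 2281 exonic bases, 201 are shared with Gm37518 and 104 with Acsm5, both on the other strand. The related general enzyme genes P4hb and Pdia3, which encode disulfide isomerases, had log2 changes of 0.099 (SE 0.158) and 0.033 (SE 0.16).

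Of 14 general chaperone and folding enzyme genes, 0 passed the adjusted edgeR threshold in either direction, and their median log2 change was -0.060. At an unadjusted edgeR p under 0.05 stood 1 member of the 14, where 7.75% of all genes tested were lower and 2.99% higher. It was Ero1lb, an oxidase that reoxidises protein disulfide isomerases. It had 30.4 and 31.9 TPM in Znhit1_KO and 43.9 and 55.6 TPM in CTRL, a log2 change of -0.97 (SE 0.263; edgeR adjusted p of 0.325). The authors' deposited table gives no mark to any of the 14, but lists Ero1lb at an adjusted p of 0.031 with a log2 change of -0.98. The smallest absolute log2 change of a marked gene in the authors' deposited table is 1.005, and 145 genes with an adjusted p under 0.05 carry no mark there. The absolute log2 change of these unmarked genes reaches 8.144, so a missing mark does not always go with a small change.

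**Figure D3:**
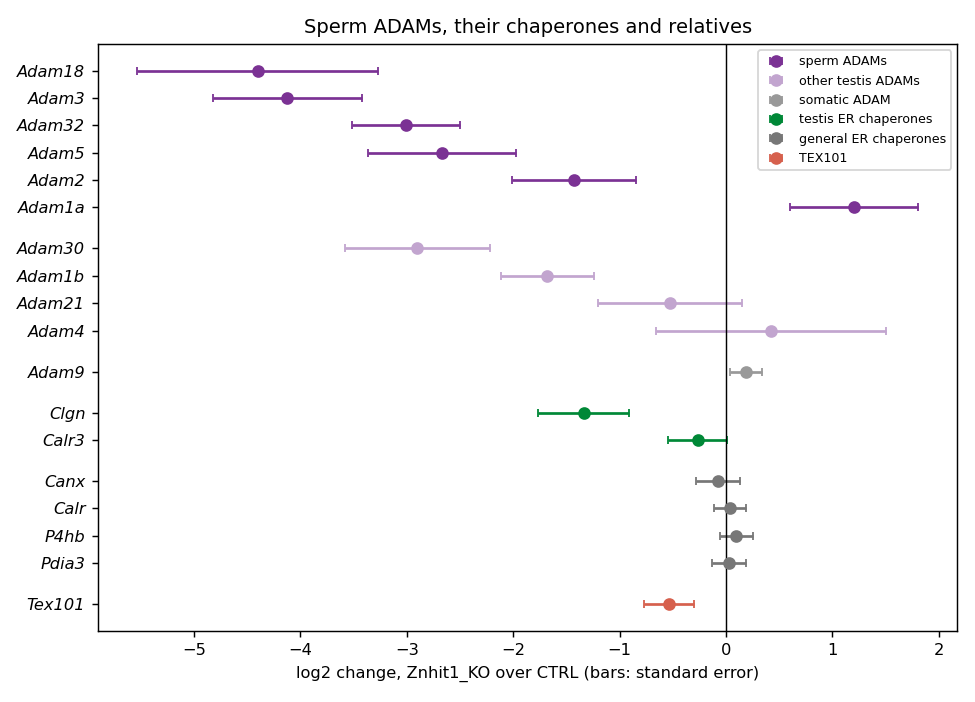
Log2 change, Znhit1_KO over CTRL, from the edgeR fit for the sperm ADAMs, their chaperones and related genes; points are estimates and bars are standard errors. The 4 clustered ADAMs lie between -4.40 and -2.67, while Adam9, Canx, Calr, P4hb and Pdia3 lie between -0.072 and 0.19; Pdilt is not drawn because CTRL is at 0.

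Tex101 (chromosome 7, 24668007 to 24676675) was the most abundant gene of the set and one of the least different. It had 777.7 and 1016 TPM in Znhit1_KO and 1125 and 1371 TPM in CTRL. The groups did not overlap, the replicates of each group lay within 1.31 times of each other, and the log2 change was -0.53 (SE 0.234; edgeR adjusted p of 0.506). Of 12 further genes known from mouse to act on ADAM3 or on sperm migration into the oviduct, 9 were tested, 0 passed in either direction and 5 were lower in both Znhit1_KO libraries, against 21.3% of all genes. Their median log2 change was -0.49. Ly6k, a binding partner of TEX101, had 154.9 and 255.9 TPM in Znhit1_KO and 278.5 and 446.3 TPM in CTRL, a log2 change of -0.89 (SE 0.374; edgeR adjusted p of 0.488).

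Lypd4, another surface protein of the same family, had 16.2 and 25.6 TPM in Znhit1_KO and 42.8 and 75.4 TPM in CTRL, a log2 change of -1.54 (SE 0.419; edgeR adjusted p of 0.326). The neighbouring membrane protein genes Cmtm2a and Cmtm2b, both required for ADAM3 in mouse, had the largest differences of the list. Cmtm2b had 1.62 and 4.42 TPM in Znhit1_KO and 14.4 and 35.5 TPM in CTRL (log2 change -3.13, SE 0.721; edgeR adjusted p of 0.302), and Cmtm2a had a log2 change of -2.44 (SE 0.746; edgeR adjusted p of 0.367). Ace, whose table row does not part its testis from its somatic isoform, differed by a log2 value of 0.074 (SE 0.171). The authors' deposited table marks Lypd4 and Cmtm2b lower and the other tested members not, against a background of 3.22% of its genes marked lower. Of 7 genes of sperm and egg fusion 4 were tested, with 0 past the threshold and a median log2 change of 0.82. Dcst1 (0.97, SE 0.428) and Dcst2 (0.81, SE 0.522) were higher in both Znhit1_KO libraries, against 21.8% of all genes, while Spaca6 (0.83, SE 0.526) and Izumo1 (-0.12, SE 0.561) had groups that overlapped by CPM. All but Spaca6 stood at low levels. Dcst1 had 1.14 and 1.06 TPM in Znhit1_KO and 0.592 and 0.404 TPM in CTRL. Dcst2 had 0.785 and 0.528 TPM in Znhit1_KO and 0.474 and 0.27 TPM in CTRL. Izumo1 had 1.23 and 0.725 TPM in Znhit1_KO and 1.6 and 0.651 TPM in CTRL.

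Taking the 10 genes as a list, 8 had both Znhit1_KO libraries below the CTRL libraries by CPM and 2 had both above. Over all genes 21.3% were lower and 21.8% higher in this sense. Those above were Adam1a and Pdilt. Adam1a had 3.98 CPM in Znhit1_KO replicate 1 against 3.96 in both CTRL libraries, and its groups overlapped by TPM. The place of Pdilt was fixed by the filter, which it passed only through the Znhit1_KO libraries. At an unadjusted edgeR p under 0.05, 5 were lower (Adam3, Adam5, Adam18, Adam32 and Clgn), where the background was 7.75%. Of the members other than Pdilt, which entered the test only through the Znhit1_KO libraries, 0 were higher, where the background was 2.99%. The median log2 change was -1.43 over the 9 genes with a fold and -1.38 with Pdilt ranked highest. These counts describe the 10 genes, which were chosen with earlier results of these libraries known.

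The number of calls depended on the tool and on its filter. The authors' deposited table marks Adam3 (log2 change -4.12, adjusted p 1.7e-11), Adam32 (-3.01, adjusted p 2.36e-09) and Clgn (-1.34, adjusted p 0.0263) lower, against a background of 3.22% of its genes. It does not mark Adam18 (-4.39, adjusted p 0.0586) and Adam5 (-2.67, adjusted p 0.118), although their changes exceed that of Clgn. DESeq2 run here on the 24116 filtered genes called 5, with Adam5 (adjusted p 0.000245) and Adam18 (adjusted p 5.74e-05) added to the same 3, and its background of lower calls was 3.86%. Run without the filter, on 35585 genes, DESeq2 called 3 (background 2.60%) with the adjusted p values of the authors' deposited table.

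The difference lay in the estimated dispersion, the spread assumed for a gene. Without the filter DESeq2 treated Adam5 and Adam18 as dispersion outliers and kept their own estimates, 0.463 and 1.00, whereas with the filter it moved them towards the trend, to 0.158 and 0.359. The estimated log2 changes of both genes moved by less than 0.01 between the 2 runs. With CTRL replicate 1 left out, edgeR called Adam3, Adam5, Adam18, Adam32 and Clgn (adjusted p between 0.00664 and 0.0358), where 2.46% of all genes were called lower, and without any 1 of the other libraries it called none of the 10. Leaving out CTRL replicate 2 brought the log2 changes of Adam3, Adam32, Adam5 and Adam18 to -3.12, -2.23, -1.76 and -3.26.

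The libraries kept 1 order in most of the set. In 8 of the 10 genes, all but Adam1a and Pdilt, TPM was lowest in Znhit1_KO replicate 1, then came Znhit1_KO replicate 2, CTRL replicate 1 and CTRL replicate 2, and 18 of the 20 pachytene spermatocyte markers had the same order. Mean log2 CPM of the set, with Pdilt included, relative to all 4 libraries was -1.14 and -0.21 in Znhit1_KO and 0.21 and 1.14 in CTRL. That of the pachytene markers was -1.24 and -0.49 in Znhit1_KO and 0.29 and 1.44 in CTRL. All 20 pachytene markers had a negative log2 change, 18 with both Znhit1_KO libraries below the CTRL libraries, against 21.3% of all genes, and their median was -1.78. Early meiotic prophase markers lay closer together, with means of -0.33 and -0.070 in Znhit1_KO and 0.080 and 0.32 in CTRL. Their median log2 change was -0.45 over 12 genes, of which 11 had a negative value. Both Znhit1_KO libraries lay below the CTRL libraries in 6 of the 12, against 21.3% of all genes, and above in 0. At an unadjusted edgeR p under 0.05, 5 were lower, against 7.75% of all genes, and 0 were higher.

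Log2 changes were positive for 13 of the 14 markers of Sertoli cells, and for 12777 of all 24116 genes tested. By CPM both Znhit1_KO libraries lay above the CTRL libraries in 11 of the 14, against 21.8% of all genes. They lay below in 1, against 21.3%. At an unadjusted edgeR p under 0.05, 5 were higher, against 2.99% of all genes, and 0 were lower. Their TPM summed to 12310.0 and 10370.0 in Znhit1_KO and to 8982 and 8204 in CTRL. Of 8 Leydig cell markers, with a median log2 change of 0.39, the steroid synthesis genes Cyp17a1 (2.62, SE 0.303) and Cyp11a1 (2.21, SE 0.523) had the largest values, and the authors' deposited table marks both higher. Median log2 changes were 0.67 for 7 macrophage markers, 0.010 for 9 spermatogonia markers and -0.0030 for 5 peritubular myoid markers. Both Znhit1_KO libraries lay above the CTRL libraries in 3, 1 and 0 of these, against 21.8% of all genes. Of 12 round spermatid markers, 7 held at most 20 estimated counts in any library, among them the protamine and transition protein genes Prm1, Prm2, Tnp1 and Tnp2. The other 5 were detected, with Izumo4 at 23.8 and 27.1 TPM in Znhit1_KO and 23.4 and 26.0 TPM in CTRL and Spaca1 at 7.94 and 7.71 TPM in Znhit1_KO and 8.69 and 9.20 TPM in CTRL. The median log2 change of the 7 round spermatid markers tested was -0.24. By CPM 3 of the 7 had both Znhit1_KO libraries below the CTRL libraries, against 21.3% of all genes, and 0 had both above. They were Tssk1 (log2 change -0.78, SE 0.422), Tssk2 (-1.20, SE 0.664) and Spaca1 (-0.24, SE 0.269). The part of the marker differences in those of the set was not tested.

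**Figure D4:**
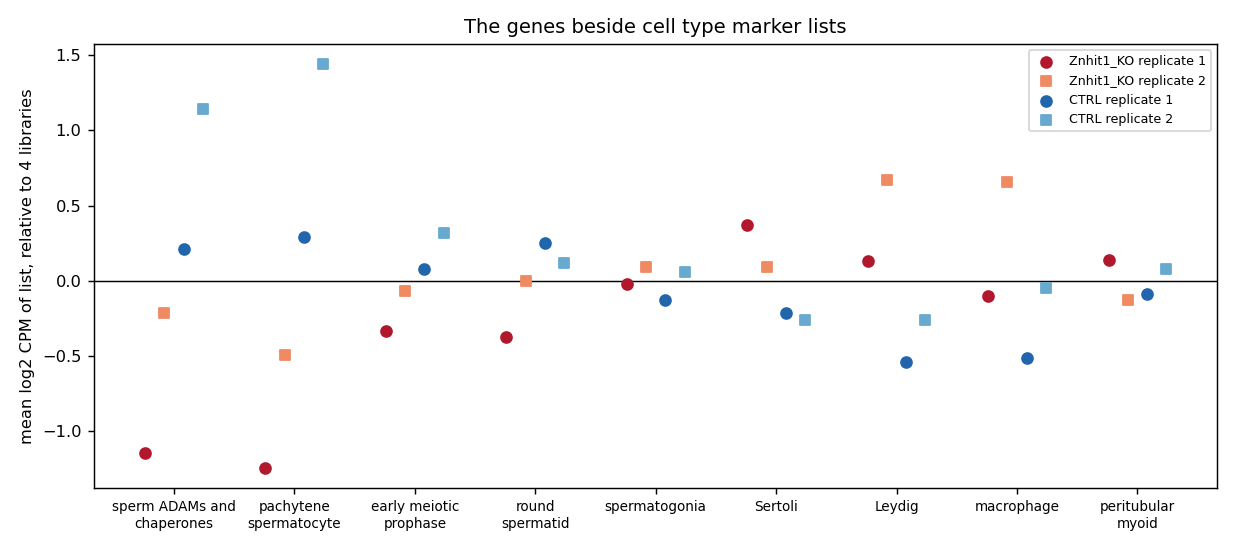
Mean log2 CPM of the 10 genes and of marker lists in each library, relative to the mean of the 4 libraries; circles are replicate 1 and squares replicate 2, with Znhit1_KO left of CTRL. The set and the pachytene markers share the order of the libraries, lowest in Znhit1_KO replicate 1 (-1.14 and -1.24) and highest in CTRL replicate 2 (1.14 and 1.44), while Sertoli cell markers lie higher in Znhit1_KO.

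The sign of the smaller differences depended on the scale. Scaling the libraries to the summed counts of those 20 markers moved the median log2 change of all genes by 1.12, and those of the 9 genes with a fold by 0.96 to 1.29, so that their order and distances stayed much as before. On that scale Adam18 (-3.19, SE 0.903), Adam3 (-2.83, SE 0.788), Adam32 (-1.73, SE 0.703) and Adam5 (-1.43, SE 0.676) still had negative log2 changes, as did 14 of the 20 pachytene markers themselves, which lay between -2.19 and 0.86 with 4 of them at or below Adam5. Adam2 (-0.20, SE 0.659), Clgn (-0.069, SE 0.679) and Tex101 (0.64, SE 0.688) were within 1 SE of 0. Tex101 and Calr3 (0.90, SE 0.765) had positive values, so that their direction turned with the scaling. Of the 10 genes 0 passed the edgeR threshold on this scale, where the adjusted p of Adam3 was 0.0947. Scaled to Sertoli cell markers, which moved the median of all genes by -0.33, the log2 changes of these 8 genes were all negative, from -4.64 for Adam18 to -0.59 for Calr3.

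**Figure D5:**
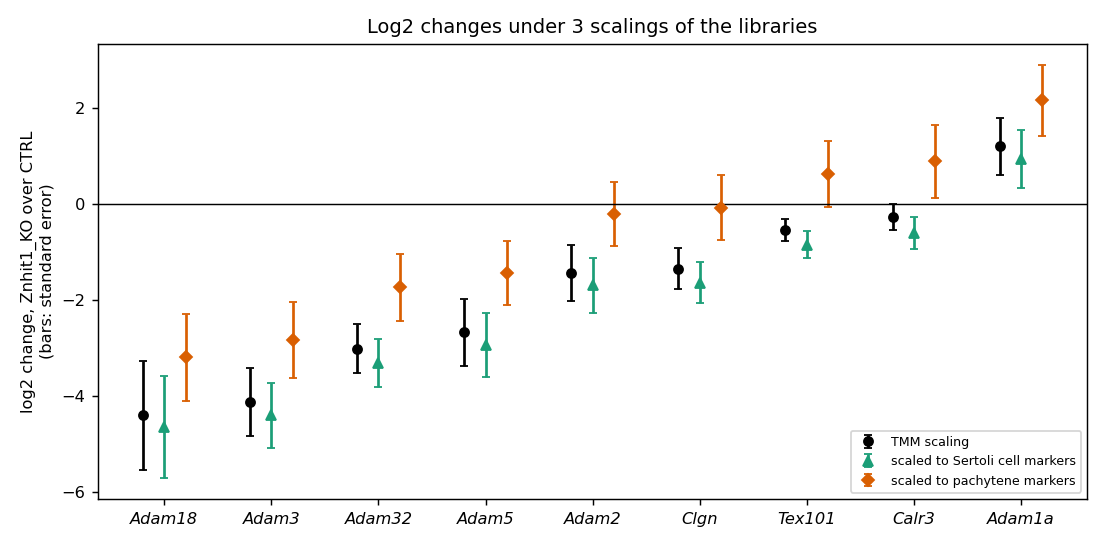
Log2 change, Znhit1_KO over CTRL, of the 9 genes with a fold under 3 scalings of the libraries; bars are standard errors. The 4 clustered ADAMs stay below 0 under all 3, and Tex101 and Calr3 lie above 0 with pachytene scaling.

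The genes whose pattern over the 4 libraries was most like the mean of the set were sought among 11272 genes by Euclidean distance of centred log2 CPM. That mean includes Pdilt, which passed the filter only through the Znhit1_KO libraries. Among the nearest were Csl (distance 0.088), Ttc26 (0.099), Odf4 (0.121) and Cage1 (0.157). Csl had 11.5 and 22.1 TPM in Znhit1_KO and 30.7 and 54.7 TPM in CTRL, with a log2 change of -1.41 (SE 0.464; edgeR adjusted p of 0.393). The other 3 had log2 changes between -1.41 and -1.29.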

How the data were processed

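RNA-seq values of 4 mouse testis libraries were used. The tools that the submitters' processing notes name are DESeq2 1.38.3, StringTie 2.2.1, HISAT2 2.2.1 and cutadapt 2.5, with mm10 as the build; the sources used here state no settings, annotation or strandedness. The deposited table holds whole-number estimated counts, taken as such because the value 4 is commoner than its neighbours (1109 genes against a mean of 736 in CTRL replicate 1), so their counting precision is overstated. TPM come from the authors' deposited table of comparisons, with a mean normalised signal, log2 fold changes with SE, Wald scores and p-values for 25236 genes.

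Counts were tested with edgeR 4.0.16 in R 4.3.3 (TMM, filterByExpr, genotype only, quasi-likelihood test, Benjamini-Hochberg adjustment at 0.05); SE came from the F statistic, and the prior count for log2 CPM was 2. DESeq2 1.42.0, limma 3.58.1 (voom), other scalings, no filter, a replicate block and each library left out were alternatives, and DESeq2 without the filter was added after the data were seen. The fit was also run on simulated data drawn with the trended dispersion, which does not show how it performs on these libraries. p-values measure the spread among 2 libraries a group.

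The members and lists were chosen with earlier results of these data known. Beside the members, of each list up to 4 genes of lowest p and the 2 of highest mean CPM could be named, with all testis ADAMs, the relatives Canx, Calr, P4hb, Pdia3 and Adam9, and the 5 genes most like the set with a mean of at least 5 CPM, of which 1 is not reported here; neighbours and overlapping genes, and the spermatid genes at or near 0, were named after their values were seen. Positions came from GENCODE M21 (mm10). Windows of promoters came from RefSeq (GRCm38.p6).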

Additional observations from a re-analysis of the deposited data

How the results depend on the processing

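The edgeR test called 0 of 24116 genes, 0 of the 10 in the set and 0 of the related lists. The related lists were other testis ADAMs, somatic ADAMs, general chaperones, ADAM3 maturation and sperm-egg fusion. They held 4, 12, 14, 9 and 4 tested genes. In the same order of genes, set and lists, DESeq2 called 1041, 5 and 6. DESeq2 without a filter, on 35585 genes, called 1027, 3 and 5. Pachytene list scaling called 57, 0 and 0. With 1 library left out the counts ranged from 0 to 626, 0 to 5 and 0 to 6, the highest without CTRL replicate 1. Limma-voom, the other scalings and no filter gave 0 for each. The median log2 change of the 9 genes was -0.20 with pachytene list scaling and between -2.23 and -0.64 with 1 library left out. With pachytene list scaling the medians of other testis ADAMs (0.22), of the ADAM3 maturation list (0.76) and of general chaperones (1.07) changed sign, as did Calr3 (0.90) and Tex101 (0.64), as that scaling raises all genes. With Sertoli list scaling Adam9 (-0.15) and the median of somatic ADAMs (-0.050) changed sign. With 1 library left out Adam1a lay between -0.0010 (without Znhit1_KO replicate 2) and 1.88 (without Znhit1_KO replicate 1), and it was 2.17 with pachytene list scaling.

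The libraries share replicate numbers, which are not said to pair them. Deviations of the libraries numbered 1 correlated at 0.421 across genes. With a replicate block edgeR called 2737 of 24116 genes, 7 of the set (Adam2, Adam3, Adam5, Adam18, Adam32, Clgn and Tex101) and 8 of the related lists. This fit leaves 1 residual degree of freedom.

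Low counts limit Adam18 in Znhit1_KO and Pdilt in every library. The depth in reads cannot be taken from the counts, because these are estimates.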
